A study of Homo sapiens with 267 samples.

Results

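The genes described are the 10 of the ATF4 amino acid and stress response listed by symbol, ATF4, DDIT3, ATF5, TRIB3, ASNS, PSAT1, CHAC1, DDIT4, SESN2 and VLDLR. Each symbol matched 1 row, so they are 10 of the 63677 genes of the count table. They were chosen by their levels and differences between libraries in these same counts, so all values below are descriptions and none is tested. The cells were K562, an established human line from a chronic myelogenous leukaemia in which the fusion kinase BCR-ABL is active. They were captured in the sites of the C1, a microfluidic instrument that lyses single cells and makes their cDNA, and were sequenced from full-length cDNA. The study asked whether cells fixed with DSP, a reversible crosslinker of amines, can be stored before such work, but the labels do not say which libraries came from fresh or fixed cells, from bulk samples or from empty sites, so fixation was not compared here.

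The labels divide the libraries by run, stain and drug. In the Hoechst run the cells were untreated, at passage 90 to 92, and stained with the DNA dyes Hoechst 33342 at 2 µM and propidium iodide at 3.75 µM, and 82 of 96 libraries were kept. In the benzene run, cells at passage 20 to 22 carried the fluorescent dye CellTracker Green or CellTracker Orange at 1 µM, the Green cells untreated and the Orange cells labelled as given 10 mM benzene, an aromatic solvent toxic to bone marrow, for 3 h, and 31 of 38 labelled Green and 34 of 37 labelled Orange libraries were kept. In the imatinib run, with the same dyes and passage, the Orange cells were labelled as given 1 µM imatinib, an inhibitor of the BCR-ABL kinase, for 1 h, and 50 of 51 untreated Green and all 45 Orange libraries were kept. The labels give the passages in hours, read here as passage numbers. The Hoechst run used a separate lot of K562 and another sequencer and read length. The labels name no separate cultures, so each stain of a run is taken as 1 culture. Hence stain and drug cannot be told apart, libraries of a stain are not replicates of a treatment, and n is the number of libraries throughout.

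ATF4 is a bZIP transcription factor whose protein is made when kinases that sense amino acid shortage, haem shortage, unfolded protein or viral RNA phosphorylate the translation factor eIF2alpha, a pathway called the integrated stress response. Its targets restore amino acid supply, as asparagine synthetase and the aminoacyl-tRNA synthetases do, and others such as DDIT3 (CHOP) and TRIB3 link prolonged stress to cell death and to the braking of the response. ATF4 itself is controlled largely at translation, so its mRNA level need not follow its activity. Many targets are reached through a composite site bound by ATF4 with a C/EBP partner.

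The letters of that composite site, searched as TGATGNAAN on both strands (NTTNCATCA on the other strand) in RefSeq promoters of GRCh38.p14, from 250 bases before to 50 after the start of each gene, were found in 2 of the 10 genes, CHAC1 and ASNS, and in 6 of the 10 genes of a tRNA synthetase list that had a promoter in the table. Of all 27305 genes with a promoter there, 4.45% held the letters in at least 1, and of all 35116 promoters of 300 bases 3.61% did. Of the other lists, the bZIP partners held the letters in 3 of 4 genes with a promoter, the amino acid transporters in 4 of 8. The amino acid synthesis enzymes had 1 of 6, and other ATF4 targets and immediate-early genes each had 0 of 7. The eIF2alpha kinases and phosphatase subunits had 1 of 6, and the ATF6 and XBP1 arm of the unfolded protein response 1 of 8. A match is a description of the sequence and not a shown site of binding. The 250 bases before the start of CHAC1 and ASNS are printed because they are the members that hold the match, and because CHAC1 was found very unevenly over libraries and ASNS was among the members that differed most between runs, with the match in capitals and the gene's own strand written 5′ to 3′.
CHAC1, chr15:40953221-40953470, plus strand: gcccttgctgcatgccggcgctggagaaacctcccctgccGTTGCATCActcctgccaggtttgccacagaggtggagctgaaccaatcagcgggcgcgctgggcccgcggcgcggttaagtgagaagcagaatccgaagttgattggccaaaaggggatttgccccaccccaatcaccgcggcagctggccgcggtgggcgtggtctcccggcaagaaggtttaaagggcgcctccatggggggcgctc
ASNS, chr7:97872409-97872658, minus strand: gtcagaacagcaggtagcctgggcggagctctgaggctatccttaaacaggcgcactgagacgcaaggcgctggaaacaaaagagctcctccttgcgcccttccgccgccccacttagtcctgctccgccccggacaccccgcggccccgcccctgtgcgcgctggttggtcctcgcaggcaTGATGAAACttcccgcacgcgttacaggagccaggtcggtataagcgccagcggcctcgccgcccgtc
In CHAC1 the match began 210 bases before the start, and in ASNS it began 68 bases before. The synthetases are shown as the match in capitals with 10 bases on each side, because they were the list outside the 10 genes with the most genes holding a match.
AARS1, chr16:70289676-70289704, minus strand: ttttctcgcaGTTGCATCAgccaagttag
CARS1, chr11:3057408-3057436, minus strand: cggggcggcgGTTGCATCAgattctagga
GARS1, chr7:30594834-30594862, plus strand: ttacgcggcgATTTCATCAtgctccgagc
IARS1, chr9:92293693-92293721, minus strand: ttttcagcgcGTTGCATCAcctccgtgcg
MARS1, chr12:57488053-57488081, plus strand: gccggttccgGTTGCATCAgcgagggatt
NARS1, chr18:57621804-57621832, minus strand: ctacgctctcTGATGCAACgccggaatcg
The same 9 letters, GTTGCATCA on the strand of the gene, stood in CHAC1, AARS1, CARS1, IARS1 and MARS1. The match spanned the start in CARS1 and MARS1 and lay after it in NARS1.

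The kept libraries held between 50358 and 2043351 reads on genes, with group medians of 1231546 to 1345125. They were those with at most 70% of reads in their 500 highest genes, and 21 libraries were left out by this limit. Detected genes, those at 1 CPM or more (CPM, reads per 1000000), had a median number of 8095 per library in the Hoechst run, 6468 and 6384 in the Green and Orange libraries of the benzene run, and 8610 and 8360 in those of the imatinib run. Of the kept libraries 13 had more than 11000 genes, and leaving them out changed the count of members past 1.5-fold only in the benzene run, from 2 to 3, with ATF5 added. They may be bulk samples, which the paper sequenced with the single cells and the labels do not mark, and this was not tested. They stay in the values below. In the Hoechst run library 92 is the largest for PSAT1 and library 96 for VLDLR. In benzene run Orange library 92 is the largest for PSAT1. In imatinib run Orange library 94 is the largest for DDIT4 and library 96 for ATF5. PRAME, a tumour antigen of K562, was detected in all kept libraries, and GATA1, an erythroid factor, in 82 of 82, 60 of 65 and 94 of 95 of the 3 runs. Of markers of other cell types, CD3E, COL1A1, ALB and CD68 summed to at most 2.84 CPM each in any run, and EPCAM to between 34.8 and 49.8 CPM. No doublet caller was run. The marker PECAM1 was not matched to a row and is not analysed here.

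ATF4 mRNA was found in nearly all libraries, and its summed level differed least between groups, from 224 to 579 CPM. The gene lies at chr22:39915700-39918688 on the plus strand of GRCh37, the build of all member coordinates below. It was detected (at least 1 CPM) in 81 of 82 Hoechst libraries, in all 31 Green and 34 Orange libraries of the benzene run, and in 49 of 50 Green and 45 of 45 Orange libraries of the imatinib run. The lowest, median and highest library had 0.850, 448 and 3216 CPM in the Hoechst run, 1.36, 383 and 1828 CPM in the benzene run Green libraries, and 2.38, 291 and 1658 CPM in the Orange ones. The imatinib run had 1.15, 261 and 939 CPM with Green and 16.6, 181 and 703 CPM with Orange. The ranges of all groups overlapped. Named copies of ATF4 in the annotation held 1052 reads against 134396 on the gene.

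DDIT3 (chr12:57910371-57915520, minus strand) and ATF5 (chr19:50431959-50437192, plus strand) encode bZIP factors that act downstream of ATF4. DDIT3, which encodes CHOP, had its lowest, median and highest value at 0, 177 and 756 CPM in the Hoechst run, at 7.08, 268 and 1728 CPM in the Green and at 32.8, 408 and 1129 CPM in the Orange libraries of the benzene run. The imatinib run lay lower, at 0, 45.9 and 413 CPM with Green and 0.815, 51.02 and 352 CPM with Orange. ATF5 had medians of 15.4 CPM in the Hoechst run, 4.401 and 5.13 CPM in the Green and Orange libraries of the benzene run and 4.61 and 5.95 CPM in those of the imatinib run. Its highest libraries ran from 48.03 to 439 CPM. DDIT3 overlaps MARS1 and other genes in the annotation and ATF5 overlaps IL4I1, NUP62 and other genes, and since the library kit does not mark strand, reads from such stretches could not be assigned by strand.

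**Figure D1:**
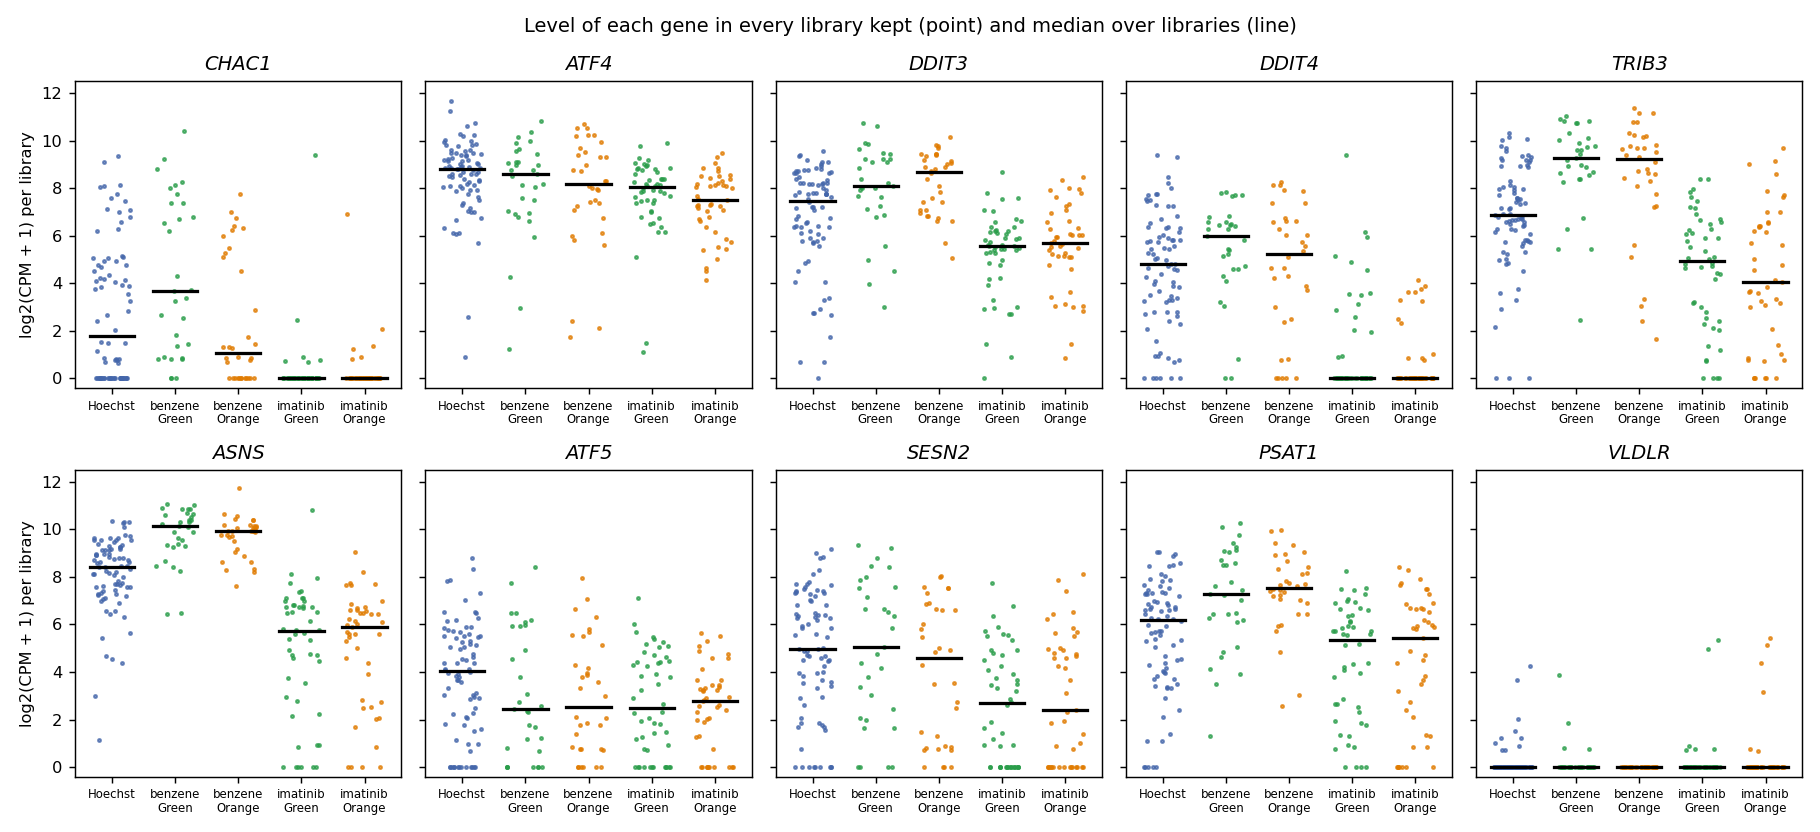
Level of each of the 10 genes as log2(CPM + 1), with 1 point per kept library and a black line at the median, by run and CellTracker stain (82, 31, 34, 50 and 45 libraries from left to right). ASNS and TRIB3 sat lowest in the imatinib run, CHAC1 and DDIT4 had medians of 0 there, and VLDLR was at 0 in most libraries of all groups.

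Of the enzymes of amino acid supply, ASNS differed more between runs than PSAT1. ASNS (chr7:97480989-97501854, minus strand), which makes asparagine, had 1.23, 344 and 1304 CPM as lowest, median and highest value in the Hoechst run. In the benzene run it had 86.6, 1112 and 2130.1 CPM in Green and 194, 961 and 3402 CPM in Orange libraries, so that no library of that run was without it. Its values in the imatinib run were 0, 51.01 and 1811 CPM in Green and 0, 58.2 and 528 CPM in Orange libraries, with detection in 41 of 50 and 40 of 45. The only Green library of the imatinib run above the benzene run Green median was library 47, at 1811 CPM. PSAT1 (chr9:80912041-80945009, plus strand), of serine synthesis, had medians of 71.4 CPM in the Hoechst run, 153 and 185 CPM in Green and Orange of the benzene run and 40.5 and 41.6 CPM in Green and Orange of the imatinib run. Its highest libraries were at 526, 1219.9, 1004, 301 and 336 CPM in the same order. Copies named for ASNS held 9445 reads against 146611 on the gene, and copies of PSAT1 held 28 against 43544.

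CHAC1 (chr15:41245160-41248710, plus strand), which degrades glutathione, was found in most libraries of some groups and in few of others. It was detected in 45 of 82 Hoechst libraries, in 23 of 31 Green and 17 of 34 Orange libraries of the benzene run, but in 2 of 50 Green and 4 of 45 Orange libraries of the imatinib run. As shares these were 54.9% (95% exact binomial interval 43.5 to 65.9), 74.2% (55.4 to 88.1), 50% (32.4 to 67.6), 4% (0.488 to 13.7) and 8.89% (2.48 to 21.2). The intervals cover counting error over libraries only. The median and highest library had 2.47 and 658 CPM in the Hoechst run, 11.8 and 1366 CPM in benzene run Green, 1.14 and 213 CPM in benzene run Orange, 0 and 679 CPM in imatinib run Green, and 0 and 121 CPM in imatinib run Orange. After thinning all libraries to 500000 reads, at least 1 CHAC1 read was left in 80.6% of benzene run Green and 4% of imatinib run Green libraries.

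TRIB3 (chr20:343479-378203, plus strand), a pseudokinase that restrains the response, was like ASNS highest in the benzene run and lowest in the imatinib run. Its lowest, median and highest values were 0, 114 and 1260.4 CPM in the Hoechst run, 4.46, 622 and 2117 CPM in Green and 2.18, 589.7 and 2676 CPM in Orange libraries of the benzene run. The imatinib run had 0, 29.4 and 334 CPM with Green and 0, 15.6 and 816 CPM with Orange. No Green library of the imatinib run reached the benzene run Green median. DDIT4 (chr10:74033678-74035794, plus strand) and SESN2 (chr1:28586029-28609002, plus strand) both hold back the growth kinase mTORC1. DDIT4 was detected in 71 of 82 Hoechst libraries, 28 of 31 and 27 of 34 Green and Orange libraries of the benzene run, and 14 of 50 and 9 of 45 of the imatinib run, where both medians were 0. Its highest libraries were at 666, 228, 300.2, 677 and 16.3 CPM in that order. SESN2 had medians of 30.5, 31.97, 23.2, 5.39 and 4.22 CPM and highest libraries of 575, 643, 259, 216 and 277 CPM.

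VLDLR (chr9:2621182-2660056, plus strand), a lipoprotein receptor listed among ATF4 targets, was close to absent. It was detected in 6 of 82 Hoechst, 2 of 31 benzene run Green, 2 of 50 imatinib run Green and 4 of 45 imatinib run Orange libraries, with no library above 41.8 CPM. In benzene run Orange it had 0 reads of 46025449 in 0 of 34 libraries, which allows a share of libraries with a read of up to 8.82% (3 of 34, counting error only) and a level of up to 0.0652 CPM. It did not pass the minimum of 5 summed CPM in any comparison, so 9 of the 10 genes entered the counts below.

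Levels between genes were compared per kilobase of exon, on reads summed over libraries. In the Hoechst run ATF4 was highest at 222 CPM per kb, followed by DDIT3 at 171, ASNS at 86.96, TRIB3 at 80.6, PSAT1 at 46.2, DDIT4 at 33.3, SESN2 at 24.9, CHAC1 at 23.7 and ATF5 at 13.7 CPM per kb. In benzene run Green the order began with DDIT3 at 334, TRIB3 at 242, ASNS at 227 and ATF4 at 185 CPM per kb. In imatinib run Green ATF4 came first again, at 110.3, ahead of DDIT3 at 47.1, PSAT1 at 25.8, ASNS at 21.2 and TRIB3 at 19.3 CPM per kb. Some neighbours in these orders, such as SESN2 and CHAC1 in the Hoechst run, were closer than the spread between libraries. Their coefficients of variation (SD over mean) were 1.37 and 2.35. Whether other neighbours differ beyond this spread was not tested.

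The spread between libraries was widest for the genes found in few of them. In the Hoechst run the coefficient of variation of CPM was 0.761 for ASNS, 0.871 for DDIT3, 0.928 for ATF4, 1.79 for ATF5, 2.35 for CHAC1 and 4.83 for VLDLR, beside a median of 1.83 over the 10724 genes with at least 5 summed CPM. For the benzene run it was 0.566 for ASNS, 0.844 for DDIT3 and 2.49 for CHAC1, with a median over genes of 2.21. For the imatinib run ASNS was at 2.15, DDIT4 at 6.35 and CHAC1 at 8.23, with a median over genes of 1.41. Without Green library 47 and Orange library 12, described below, these were 1.0004, 2.88 and 3.85, and the median over genes was 1.40. The coefficient also depends on level.

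The largest difference lay between the untreated Green libraries of the CellTracker runs. Of the 9 genes compared, 0 were at least 1.5-fold higher and 9 at least 1.5-fold lower in the imatinib run, where 30.2% of the 10039 genes with a pooled 5 CPM were higher and 25.1% were lower by as much. The median log2 ratio was -2.71 over these genes and 0.07 over all genes compared. TRIB3 was at 797 summed CPM in the benzene run and 63.5 in the imatinib run, 12.6-fold lower (log2 ratio -3.65, 95% Poisson interval -3.70 to -3.60, counting error only). ASNS was at 1111 and 103.6 summed CPM (-3.42), CHAC1 at 137.9 and 13.1 (-3.40), DDIT3 at 437 and 61.6 (-2.82) and SESN2 at 128.5 and 19.6 (-2.71). PSAT1 (-2.35), DDIT4 (-2.02) and ATF5 (-1.29) were between, and ATF4 itself differed least, at 482 and 288 summed CPM (-0.74). Several members also parted library by library, and 31 of 31 benzene run Green libraries lay above the imatinib run median for ASNS, 30 of 31 for TRIB3, 29 of 31 for DDIT4, 28 of 31 for CHAC1 and 26 of 31 for DDIT3, against 24 of 31 for PSAT1, 22 of 31 for SESN2, 20 of 31 for ATF4 and 15 of 31 for ATF5. The middle 50% of libraries of the groups did not overlap for the first 5 of these genes, while they did for ATF4, ATF5, SESN2 and PSAT1. Neither the library counts nor the overlap of the middle 50% was worked out over all genes. Both describe the members alone, and whether they are unusual cannot be told. For ATF5 the medians were nearly equal, 4.61 in the imatinib and 4.401 CPM in the benzene run, and the ratio of sums came from the upper libraries. With the library holding most reads of each gene left out of each group, CHAC1 was at -9.10, DDIT4 at -3.58 and ASNS at -3.93. All 3 were further from 0 than with them, and for the imatinib run the library left out was number 47 for each. The CHAC1 ratio then rested on a level near the floor, 0.178 CPM in imatinib run Green. TRIB3 (-3.69), DDIT3 (-2.84) and SESN2 (-2.82) also moved away from 0. ATF4 (-0.66), ATF5 (-1.06) and PSAT1 (-2.32) moved towards 0.

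**Figure D2:**
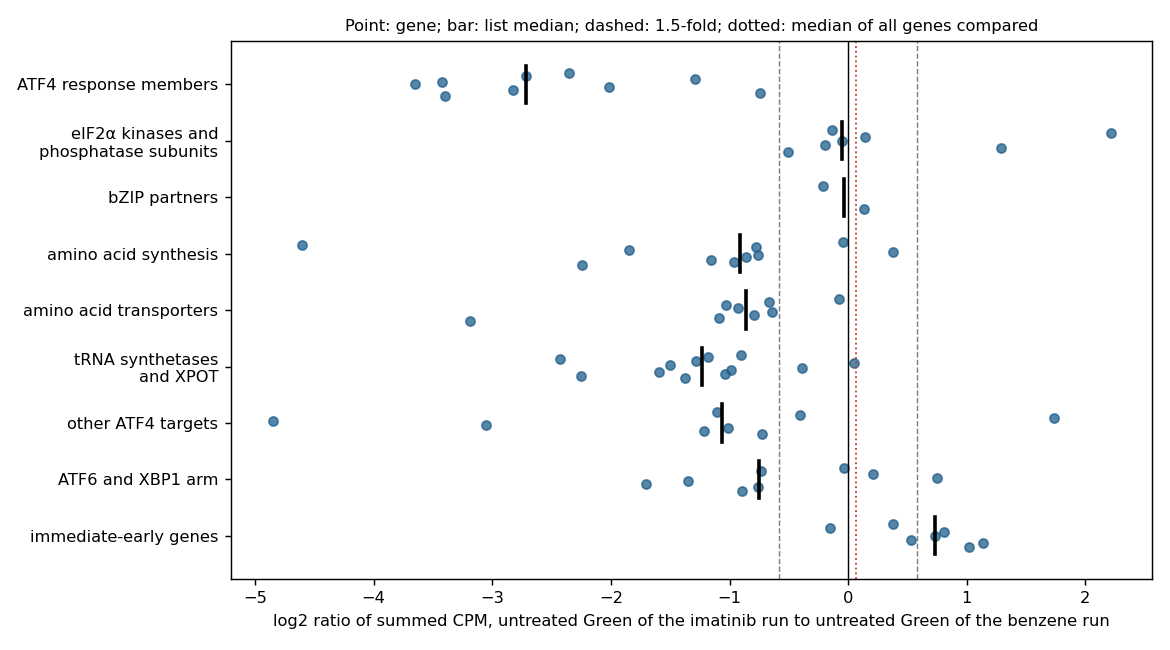
Log2 ratio of summed CPM of the untreated Green libraries, imatinib run to benzene run, for each gene (point) of the members and of 8 lists, with list medians (bars), 1.5-fold limits (dashed) and the median of all genes compared (dotted). All 9 members with at least 5 summed CPM lie at -0.74 or below, the synthetase list has a median of -1.23, and the immediate-early genes lie mostly to the right.

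Other genes of the pathway differed in the same direction. Of the synthetase list, which holds 11 aminoacyl-tRNA synthetases and the tRNA exporter XPOT, 10 of 12 were at least 1.5-fold lower and 0 higher in imatinib run Green, with a median log2 ratio of -1.23 and with WARS1 at -2.43 and CARS1 at -2.25. Of the amino acid synthesis enzymes 8 of 10 were lower (median -0.91), of the transporters 7 of 8 (median -0.86), and of other ATF4 targets 6 of 8, with 1 higher (median -1.06). CTH, of cysteine synthesis, had a log2 ratio of -4.61, the cystine transporter SLC7A11 -3.19 and the stress hormone gene GDF15 -4.85. SQSTM1, of selective autophagy, went the other way at 1.74. The upstream kinases and phosphatase subunits had 2 of 7 higher and 0 lower (median -0.05), and of these PPP1R15A, which ends the response by restoring eIF2alpha, was at 18.3 summed CPM in the benzene and 84.98 in the imatinib run (2.21). Of the ATF6 and XBP1 arm of the unfolded protein response 5 of 8 were lower and 1 higher (median -0.75), and of the immediate-early genes 4 of 7 were higher and 0 lower (median 0.73). Of 6 K562 markers 1, HBZ, was higher and 0 lower (median 0.09), and of the 2 bZIP partners that passed the minimum 0 differed by as much. The genes named from these lists were chosen after their values were seen.

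Several other measures moved with the same groups, while the mitochondrial share was nearly equal. A median of 6468 genes was detected in benzene run Green and of 8610 in imatinib run Green libraries, the median share of reads in the top 500 genes was 58.8% and 48.9%, the share of ERCC spike-in reads 3.88% and 7.61%, and the mitochondrial share 6.52% and 6.32%. Their part in the result was not tested, and run and culture cannot be told apart. Of the calls over all genes 54.6% were higher, and this share was 43.7% with DESeq2 size factors and 72.9% with the largest library of each gene left out, where the median of all genes was -0.13 and 0.41. With TMM factors that median was -0.07. All 9 members stayed at least 1.5-fold lower under each of these settings.

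The Hoechst run was also set against the mean of the untreated Green groups. ATF4 (579 summed CPM in the Hoechst run, 385 in the mean) and ATF5 (39.6 and 26.2) were the 2 of 9 genes at least 1.5-fold higher, where 32.8% of the 10546 genes compared were. CHAC1 (48.7 and 75.5), TRIB3 (265 and 430.1) and PSAT1 (102.0 and 173.8) were the 3 at least 1.5-fold lower, where 22.9% of all genes were. ASNS (-0.51), DDIT3 (-0.16), SESN2 (0.22) and DDIT4 (0.55) were inside the limit. The median log2 ratio was -0.16 over the 9 genes and 0.13 over all genes. ATF4 and ATF5 were both at 0.24 with DESeq2 size factors and at 0.36 with TMM, SESN2 turned to -0.17 and -0.04 with them, and the share of calls higher over all genes fell from 58.9% to 39.9% and 46.5%. ASNS was past the limit on the lower side with these factors, at -0.91 and -0.78, and at -0.62 with all libraries. Left without its largest library in each group, CHAC1 was inside the limit at -0.20 and DDIT4 past it at 0.68. The median mitochondrial share was 12.45% in the Hoechst run and 6.52% and 6.32% in the Green groups, and with mitochondrial genes left out of the totals CHAC1 was at -0.54, inside the limit, and DDIT4 at 0.65, past it. With a limit of 60% on the top 500 genes, TRIB3 was the 1 gene still past 1.5-fold, at -0.89, while CHAC1 was at 0.17, PSAT1 at -0.49, ATF4 at 0.32 and ATF5 at 0.37. The Hoechst run also differs in lot, passage, stain and sequencing, which cannot be told apart.

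Most of the 10 genes had similar levels in both stains of the benzene run. Of 9 compared, 0 were at least 1.5-fold higher in Orange, where 26.3% of the 9968 genes compared were, and 2 were at least 1.5-fold lower, where 22.7% were. ATF4 was at 482 summed CPM in Green and 496 in Orange, DDIT4 at 75.03 and 79.4, PSAT1 at 290.6 and 279.7, TRIB3 at 797 and 729, DDIT3 at 437 and 398, and ASNS at 1111 and 965. The log2 ratios of these 6 genes lay between -0.20 and 0.08, and those of ATF4, DDIT4, TRIB3 and PSAT1 (-0.06) changed sign under at least 1 setting. ATF5 was at 37.1 and 25.7 summed CPM (-0.53). SESN2 was at 128.5 in Green and 62.3 in Orange, 2.06-fold lower (-1.04, interval -1.11 to -0.98), although its library medians, 31.97 and 23.2 CPM, were close and 14 of 34 Orange libraries lay above the Green median.

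CHAC1 was 5.13-fold lower in Orange, at 26.9 against 137.9 summed CPM (-2.36, interval -2.45 to -2.27), and this size rested on the limit for libraries. Green library 65, with 1366 CPM and 31.5% of all Green reads of the gene, had 69.8% of reads in its top 500 genes and was kept. Orange library 71, with 1504 CPM, was slightly over the limit of 70% and was left out. Their mitochondrial shares were 18.1% and 15.3%, against group medians of 6.52% and 6.21%. With all libraries the log2 ratio of CHAC1 was -0.96, with a limit of 60% it was -1.30, and with the largest library of each stain left out it was -2.18. The stain groups overlapped, with 11 of 34 Orange libraries above the Green median. In this run 4 libraries of the labels had no column under their title and 4 columns bore a name not in the labels, and whether other columns are named correctly was not tested.

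**Figure D3:**
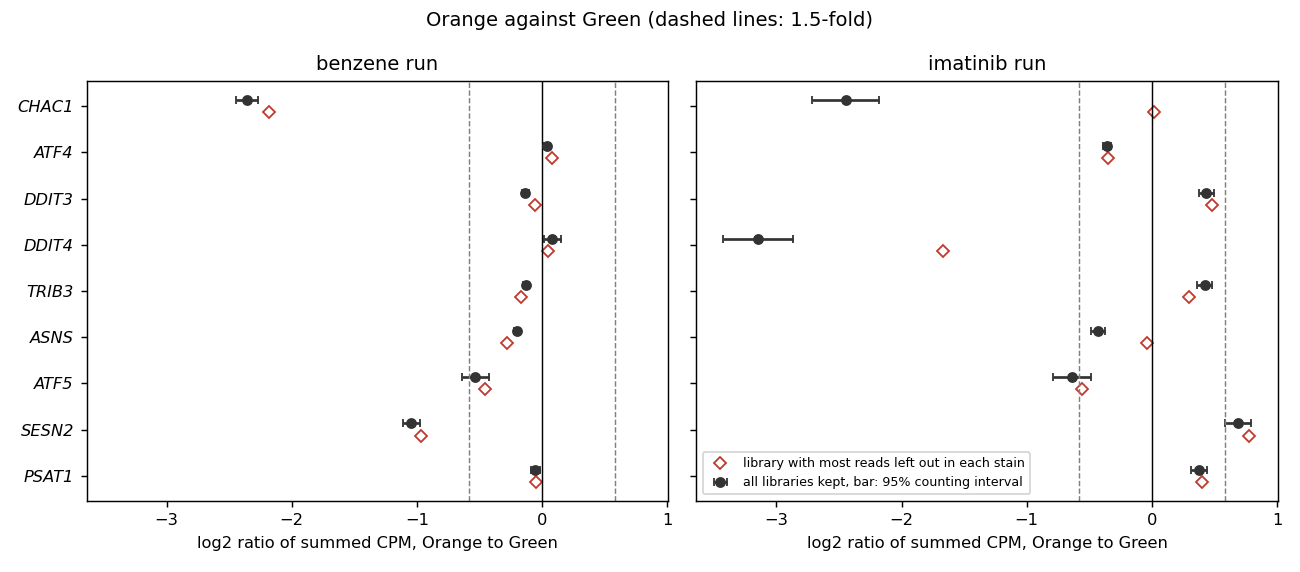
Log2 ratio of summed CPM, Orange to Green, for the 9 genes with at least 5 summed CPM in the benzene run (left) and the imatinib run (right). Filled points use all kept libraries with 95% counting intervals, open diamonds leave out the library with most reads in each stain, and dashed lines mark 1.5-fold. CHAC1 in the imatinib run moves from -2.44 to 0.015 and DDIT4 from -3.14 to -1.67.

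In the imatinib run 1 of the 9 genes was at least 1.5-fold higher in Orange, where 10.4% of the 9975 genes compared were, and 3 were at least 1.5-fold lower, where 12.6% were. SESN2 was the higher one, at 19.6 summed CPM in Green and 31.6 in Orange (0.69, interval 0.58 to 0.80), with library medians of 5.39 and 4.22 CPM that went the other way. ATF5 was at 15.2 and 9.76 (-0.64), and its medians of 4.61 and 5.95 CPM also went the other way. With the largest library of each stain left out ATF5 was at -0.56, inside the limit, and SESN2 at 0.78. DDIT3 (61.6 in Green and 83.3 in Orange), TRIB3 (63.5 and 85.1) and PSAT1 (56.9 and 73.7) had higher sums in Orange by 0.43, 0.42 and 0.37 on the log2 scale. The TRIB3 medians went the other way, 29.4 CPM in Green and 15.6 in Orange, with 33 of 50 Green libraries above the Orange median and 17.6% of the Orange reads in library 12. ATF4 (288 and 224) was lower in Orange, with a log2 ratio of -0.36, and 34 of 50 Green libraries lay above the Orange median of ATF4.

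The largest ratios of the imatinib run, of CHAC1 and DDIT4, rested largely on single libraries. CHAC1 was at 13.1 summed CPM in Green and 2.40 in Orange (-2.44), but Green library 47 alone held 98.7% of the Green reads and Orange library 12 held 92.6% of the Orange reads. Without them the levels were 0.178 and 0.180 CPM. DDIT4 was at 18.6 and 2.10 summed CPM (-3.14), with 69.2% of the Green reads in library 47. Without its largest library in each stain it was at 5.82 and 1.83 CPM, still 3.18-fold lower in Orange (-1.67). ASNS moved from -0.43 to -0.04 in the same way, as library 47 held 33.2% of its Green reads.

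Of the other pathway genes in the benzene run, the highest Orange to Green log2 ratios were those of JUNB (2.41), SLC6A9 (1.85) and ATF3 (1.19), and the lowest those of DUSP1 (-1.71), NUPR1 (-1.47, which turned to 1.26 without its largest libraries) and JUN (-1.41). In the imatinib run the highest were GDF15 (1.71, or 0.32 without its largest libraries), SLC7A11 (1.42) and VEGFA (1.39), and the lowest FOSB (-2.92), ATF3 (-1.97) and JUN (-1.97). SLC7A11 imports cystine, SLC6A9 glycine, and ATF3 is a bZIP factor induced by ATF4. Without its largest libraries ATF3 was at 0.10 in the benzene run. None of the 12 genes of the synthetase list passed 1.5-fold between the stains in either run, with medians of -0.06 and 0.05. In the benzene run 1 of 10 amino acid synthesis enzymes was higher and 1 lower in Orange, of 9 transporters 2 were higher and 1 lower, and of 8 other ATF4 targets 2 were higher and 1 lower. The same lists in the imatinib run had 2 of 10, 1 of 8 and 2 of 7 higher, and 0, 0 and 1 lower. Of the ATF6 and XBP1 arm 1 of 8 was higher and 1 lower in the benzene run, and 1 of 8 higher and 0 lower in the imatinib run. The upstream kinases and phosphatase subunits had 1 of 6 higher and 1 lower, and 0 of 6 higher and 1 lower, and the bZIP partners 2 of 3 higher and 1 lower, and 0 of 2 higher and 1 lower. Of 7 immediate-early genes, early readouts of growth factor signalling, 3 were lower and 1 higher in benzene run Orange, and 6 were lower and 1 higher in imatinib run Orange, with a median of -1.40. Green and Orange libraries had medians of 6468 and 6384 genes in the benzene run and of 8610 and 8360 in the imatinib run, with ERCC shares of 3.88% and 4.23% and of 7.61% and 8.48%. The part of these in the stain ratios was not tested.

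Green library 47 and Orange library 12 of the imatinib run were then looked at across all the lists, after their values for CHAC1 had been seen. The place of CHAC1 in them was thus known beforehand, and it is still counted among the 10 genes below. By reads, library 47 was the largest of the 50 Green libraries for 6 of the 10 genes, CHAC1, ATF4, DDIT4, TRIB3, ASNS and PSAT1, while it was the largest for 3.61% of the 9936 genes with at least 5 summed CPM in that group. Library 12 was the largest of 45 Orange libraries for CHAC1, TRIB3 and ASNS, and for 2.06% of 9888 genes. In no other kept library of any group were more than 2 of the 10 genes at their largest. By CPM, library 47 stood first for 5 of the 10 genes (3.96% of all genes) and among the first 5 libraries for 8 (12.8% of all genes). Library 12 stood first for 7 (3.37% of all genes) and among the first 5 for 9 (14.5% of all genes).

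**Figure D4:**
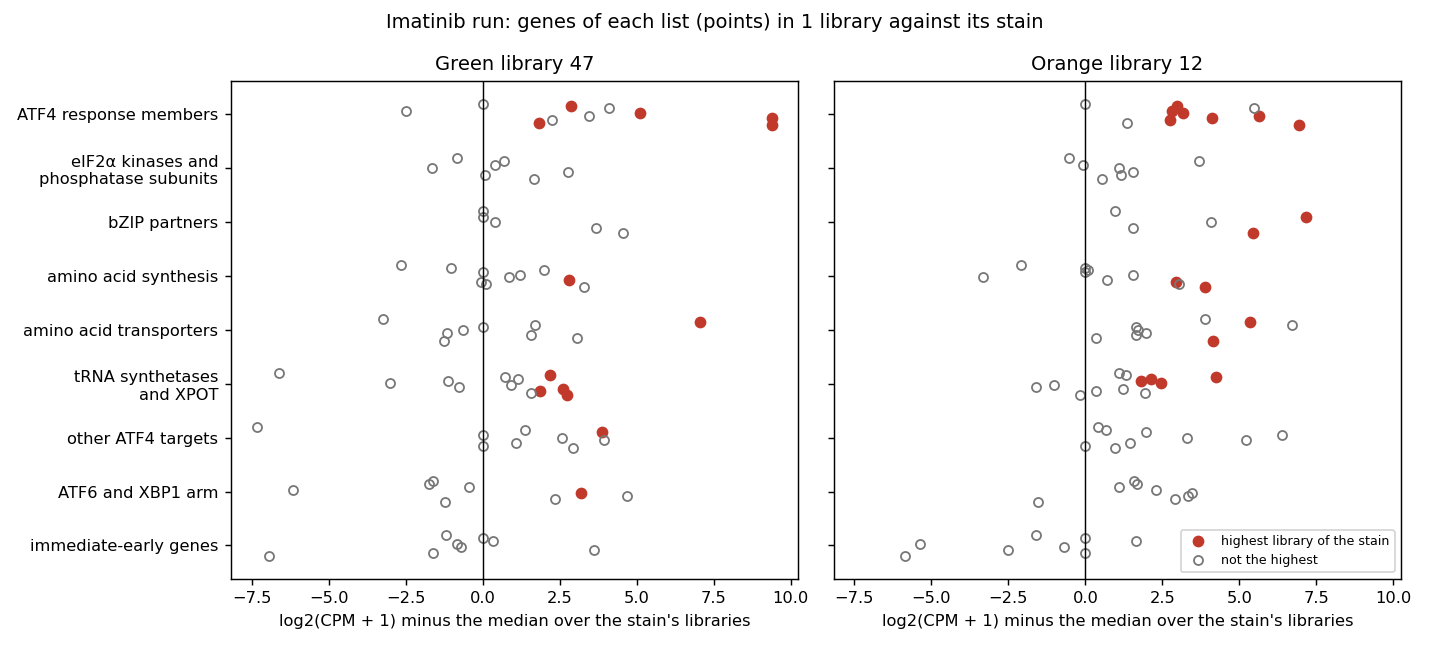
Log2(CPM + 1) of each gene in Green library 47 (left) and Orange library 12 (right) of the imatinib run, minus the median over the libraries of its stain, by gene list. Filled points mark genes for which the library was the highest of its stain. The members lie at a median of 3.17 and 3.07, the immediate-early genes at -0.77 and -1.15.

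In library 47, CHAC1 was at 679 CPM against a Green median of 0, DDIT4 at 677 against 0, ASNS at 1811 against 51.01, ATF4 at 939 against 261, DDIT3 at 221 against 45.9 and SESN2 at 109.5 against 5.39. The synthetases AARS1 (1297 against 193), GARS1 (1209 against 196), EPRS1 (1865 against 509.7) and YARS1 (1160.1 against 254) were at their highest there, while MARS1 (35.1 against 288), IARS1 (328 against 558) and NARS1 (99.5 against 220) and the exporter XPOT (0 against 97.3) were under the Green median, and the list lay at a median of 1.03 above it on the log2 scale. ATF5 was at 0 against 4.61 CPM and ERO1A, of disulfide formation, at 0 against 160 CPM. Also at their highest were MTHFD2 of mitochondrial folate metabolism, the glycine transporter SLC6A9, SQSTM1 and HERPUD1. In library 12, TRIB3 was at 816 CPM against an Orange median of 15.6, DDIT3 at 352 against 51.02, ASNS at 528 against 58.2, PSAT1 at 336 against 41.6 and CHAC1 at 121 against 0. NUPR1 (143 against 0), ATF3 (42.3 against 0), PHGDH of serine synthesis (822 against 54.9), SHMT2 of glycine synthesis (2804 against 362) and WARS1 (4090.2 against 216) were also at their highest in it. The synthetases AARS1 (137 against 156), IARS1 (199 against 602) and LARS1 (119 against 240) lay under the Orange median. So did the amino acid synthesis enzymes ALDH18A1 (2.88 against 38.05) and CBS (31.7 against 138). On the log2 scale the synthetase and synthesis lists lay at medians of 1.28 and 0.40 above it. Relative to the stain's medians, the members lay at a median of 3.17 in library 47 and 3.07 in library 12 on the log2 scale, and all genes with at least 5 CPM at -0.05 and 0. The ATF6 and XBP1 arm lay at -0.83 and 1.98. These libraries had 1196479 and 1041037 reads and 6988 and 8248 genes, with mitochondrial shares of 7.38% and 3.77%, and each is 1 library without a repeat.

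Elsewhere the largest library was shared by at most 2 members, as Hoechst library 40 by ATF4 and DDIT4 and benzene run Green library 5 by DDIT4 and TRIB3. In the Hoechst run the largest library held between 5.18% (ASNS) and 14.02% (CHAC1) of the reads of each of the 9 genes other than VLDLR, and in benzene run Green between 6.97% (ASNS) and 31.5% (CHAC1). In benzene run Orange this share ran from 7.22% (DDIT3) to 24.6% (ATF5). In imatinib run Green it ran from 6.19% (ATF4) to 98.7% (CHAC1) and in Orange from 6.28% (ATF4) to 92.6% (CHAC1). The 3 highest shares among the 9 genes were thus all in the imatinib run.

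Co-expression of the 10 genes over libraries was weak. The median Spearman rho of log2(CPM + 1) over the 45 pairs was 0.069 in the 82 Hoechst libraries, 0.076 in the 65 benzene run libraries and 0.050 in the 95 imatinib run libraries, beside medians of 0.029, 0.048 and 0.036 over all pairs of genes that 50% or more of a run's libraries held at 1 CPM. The points of a run share depth and number of genes detected. Given the number of genes detected, the medians were 0.043, 0.057 and 0.020, beside 0.0041, 0.0067 and 0.0032 over all pairs. Over only those members that 50% or more of the libraries held, as the genes of all pairs did, they were 0.078, 0.062 and 0.013. Of the 45 pairs 29, 27 and 30 were above 0. The range was -0.20 to 0.32 in the Hoechst run, -0.23 to 0.36 in the benzene run and -0.22 to 0.33 in the imatinib run. Without library 47 and library 12 the median of the imatinib run was 0.012.

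**Figure D5:**
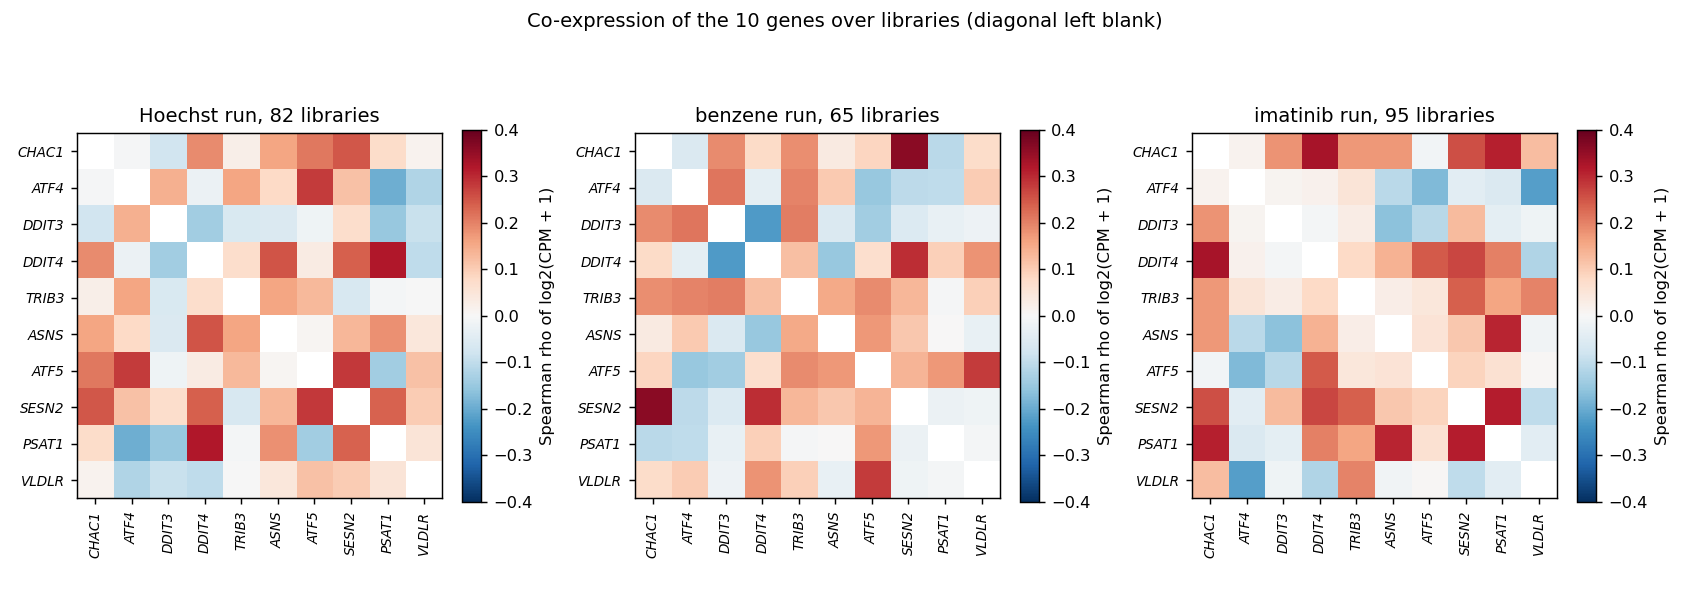
Spearman rho of log2(CPM + 1) for each pair of the 10 genes over the libraries of each run (82, 65 and 95), in colour from -0.4 to 0.4 with a blank diagonal. Most cells are pale, and the strongest pairs are DDIT4 with PSAT1 (0.32), CHAC1 with SESN2 (0.36) and CHAC1 with DDIT4 (0.33) in the 3 runs from left to right.

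The strongest pairs differed from run to run. In the Hoechst run they were DDIT4 with PSAT1 (0.32), ATF5 with SESN2 (0.28) and ATF4 with ATF5 (0.28). In the benzene run they were CHAC1 with SESN2 (0.36) and DDIT4 with SESN2 (0.30), and ATF4 with ATF5 was at -0.15. In the imatinib run they were CHAC1 with DDIT4 (0.33), SESN2 with PSAT1 (0.31) and CHAC1 with PSAT1 (0.31), where CHAC1 and DDIT4 are at 0 in most libraries. SESN2 had the highest mean rho with the other members in the Hoechst run (0.15), TRIB3 in the benzene run (0.14) and CHAC1 in the imatinib run (0.17). The level of ATF4 mRNA had a mean rho of 0.048, 0.018 and -0.057 with the other members.

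The genes most like the members were also not shared between runs. Measured as the mean rho with the 10 members, among genes held by 50% or more of the libraries, the first 5 were HBZ (0.19), SRCAP, CENPA, CLPP and GDF15 over 82 Hoechst libraries. They were RRM2 (0.20), DHPS, UIMC1, POLR1A and F11R over 65 benzene run libraries, and NDEL1, PSMC4, CARS1, PPCDC and HERPUD1 (each 0.18) over 95 imatinib run libraries. Of the first 50 in each run, 0 were shared between the Hoechst and benzene runs, 1 (2%) between the Hoechst and imatinib runs and 0 between the benzene and imatinib runs. GDF15, CEBPB, EIF4EBP1, YARS1 and ALDH18A1 of the pathway lists were among the first 50 in the Hoechst run, ERO1A in the benzene run, and CARS1, HERPUD1, SQSTM1 and SLC3A2 in the imatinib run. The share of list genes among all genes ranked was not computed. The mean rho was not adjusted for the number of genes detected. That number had a rho of 0.54 with HERPUD1 (imatinib run), 0.60 with F11R (benzene run) and 0.09 with HBZ (Hoechst run).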

How the data were processed

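The authors trimmed reads with skewer, aligned them with HISAT2 to GRCh37 with the ERCC spike-in sequences and counted reads per Ensembl gene with featureCounts (Subread 1.5.0). Duplicates were marked with Picard 1.92, and it is not given in the sources used here whether the counts hold them. The authors deposited a table of raw counts and a table of CPM, which is the counts scaled per 1000000 reads, ERCC included (largest relative difference 4.97e-07). Of 267 labelled libraries 263 matched a column by title. In the benzene run 4 titles had no column, and 4 further columns were not used. No libraries had identical counts.

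From the counts, reads of the 63677 genes were summed per run and stain and expressed as CPM of gene reads. Libraries with more than 70% of reads in the top 500 genes were left out, which kept 242. Detection was 1 CPM in the authors' CPM table. Ratios are of summed CPM, genes needed 5 CPM over both groups pooled, or on average for the Hoechst comparison, and past 1.5-fold is the limit used for counts. Each stain of a run was taken as 1 culture, so no test was made. Poisson and binomial intervals (exact, 95%) cover counting error only, since reads carry no molecular identifiers. A gene at 0 was given a limit of 3 counts. Coordinates and exon lengths came from GENCODE v44lift37, which held 55665 of the gene identifiers, and promoters from RefSeq. Correlations used log2(CPM + 1). Steps were tested on simulated data. Python 3.11.15, numpy 2.4.6, pandas 2.3.3, scipy 1.17.1, matplotlib 3.10.9, and R 4.3.3 with edgeR 4.0.16 (TMM) and DESeq2 1.42.0 (size factors) were used, the last 2 for scaling alone.

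The 10 genes and all lists were chosen with earlier results of these data known. Of the markers of other cell types 1 is not reported here. Named genes were all 10, the 3 highest and 3 lowest other pathway genes between stains in each CellTracker run, and the 5 genes per run with the highest mean rho with the members. Genes named outside this rule are said to be so where they stand, and the genes named in libraries 47 and 12 were chosen after their values were seen. Depth ranged from 50358 to 2043351 gene reads per library. Alternatives were the limit on libraries, the weight of libraries, TMM and DESeq2 scaling, the totals, the largest library left out, the fold, the minimum CPM, the detection threshold, thinning, the pseudocount and the measure of correlation. Leaving out libraries with more than 11000 genes, leaving out libraries 47 and 12 of the imatinib run, and using only members detected in 50% of libraries were added after the data were seen.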

Additional observations from a re-analysis of the deposited data

Results flagged for a closer look

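For 6 genes the Orange to Green log2 ratio had opposite signs in the benzene and imatinib runs, with both counting intervals off 0. The difference between runs was not tested, since each stain of a run was taken as 1 culture. ATF4 was at 0.04 in the benzene and -0.36 in the imatinib run, DDIT3 at -0.13 and 0.43, TRIB3 at -0.13 and 0.42, and PSAT1 at -0.06 and 0.37. The benzene run ratio took the sign of the imatinib run for ATF4 with all libraries (-0.03), with the limit of 60% (-0.48) and with DESeq2 size factors (-0.04), for TRIB3 with all libraries (0.04), for PSAT1 with the limit of 60% (0.38) and for DDIT4 with equal weight of libraries (-0.02). DDIT4 was at 0.08 and -3.14, the latter with 69.2% of Green reads in 1 library. SESN2 was at -1.04 and 0.69, past 1.5-fold in opposite directions, although its library medians were lower in Orange in both runs, 31.97 in Green and 23.2 CPM in Orange of the benzene run and 5.39 and 4.22 CPM in the imatinib run.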

How the results depend on the processing

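The count of members past 1.5-fold between Orange and Green of the imatinib run was 4, and 2 with the largest library of each gene left out, 2 at 2-fold and 3 without Green library 47 and Orange library 12. Over all genes 1036 were higher and 1258 lower. These were 967 and 1384 with the largest library left out, and 1051 and 1275 without libraries 47 and 12. The log2 ratio of CHAC1 there turned from -2.44 to 0.015 both with its largest libraries and with these 2 libraries left out. For the Hoechst run against the Green groups the count was 5, but 1 with a limit of 60%, 3 with equal weight of libraries, 0 at 2-fold, 4 with TMM or DESeq2 factors and 6 with no minimum of CPM. The 4 with TMM or DESeq2 factors were CHAC1, TRIB3, PSAT1 and ASNS, all lower. Over all genes 3458 were higher and 2415 lower. These were 3542 and 2400 with the limit of 60%, and 3417 and 2397 with equal weight. With TMM they were 2752 and 3171, and with DESeq2 factors 2414 and 3631. CHAC1 turned from -0.63 to 0.17 with the limit of 60%. The cause was not tested. Between the stains of the benzene run the count of 2 was 2 or 3 under all settings, and between the untreated Green groups the count of 9 was between 8 (2-fold) and 10 (no minimum of CPM, with VLDLR higher). Over the settings at 1.5-fold, 2352 to 2853 of all genes were higher and 1990 to 2464 lower in benzene run Orange. Between the Green groups these were 2463 to 4390 and 1633 to 3175. The shares of all genes at 2-fold and with no minimum of CPM are not given here. All median correlations stayed above 0 and within the spread over pairs, with 0.20 in the Hoechst run over all libraries as the highest. No paired analysis was possible because library numbers are positions in a run, and no number joins libraries of different groups. Of 371 log2 ratios of members under the alternatives 3 past 1.5-fold reversed, as given for CHAC1, 178 stayed within the counting interval and 190 did not or had none, as in the Hoechst comparison, and of 120 shares of libraries with a member 21 moved beyond their interval. Leaving out libraries 47 and 12 moved the coefficient of variation by over 1.5 times for 3 of 10 members in the imatinib run. VLDLR had 255 reads in all.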
